A study of Mus musculus with 6 samples.

Results

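The genes described are 8 that store, import, export or sense iron: Fth1, Ftl1, Tfrc, Slc40a1, Slc11a2, Hmox1, Ireb2 and Aco1. They were picked by gene symbol from a list of known iron genes, with earlier results of these data known. All 8 were found among the 18543 genes of the count table. The cells were group 2 innate lymphoid cells (ILC2s), lymphocytes without rearranged antigen receptors that make type 2 cytokines, sorted from mouse lung. There were 3 libraries labelled KO, from Atg5-/- mice, and 3 labelled WT, from wild-type mice. All mice were C57BL/6 and aged 8 weeks, and all had received 0.5 µg of recombinant mouse IL-33 into the nose on each of 3 days in a row, with ILC2s taken on day 4, so no library represents unstimulated cells. Atg5 encodes part of the machinery that conjugates LC3 to autophagosome membranes. The labels do not say how the Atg5 allele was made, whether other cells of the animal also lacked it, or whether a library came from a single mouse or a pool.

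Iron enters most cells as transferrin bound to the transferrin receptor (Tfrc), and the transporter DMT1 (Slc11a2) moves it out of the endosome. Ferritin, a shell of heavy (Fth1) and light (Ftl1) chains, stores it, ferroportin (Slc40a1) exports it, and haem oxygenase 1 (Hmox1) frees it from haem. The iron regulatory proteins IRP1 (Aco1, which doubles as the cytosolic aconitase) and IRP2 (Ireb2) bind hairpins called iron-responsive elements when iron is scarce. Bound in a 5′ UTR they block translation, as for ferritin, and bound in the 3′ UTR of Tfrc they protect the mRNA from decay. Autophagy takes ferritin to lysosomes through the receptor NCOA4, which frees its iron.

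The iron-responsive elements are shown because they split the 8 genes into groups that iron regulatory proteins are known to act on in opposite ways. They were searched on the transcript strand of GENCODE vM21 protein-coding transcripts (mm10 build) with the letters CNNNNNCAGTGN or CNNNNNCAGAGN, followed by 5 bases of which at least 4 pair with the first 5 N (G with T counted as a pair). Each line gives 29 bases, 5′ to 3′, with the 6 bases of the loop in capitals. Fth1 (chr19:9982732-9982760, forward strand), Ftl1 (chr7:45459779-45459807, reverse strand) and Slc40a1 (chr1:45925465-45925493, reverse strand) each held 1 element in exon 1, in the 5′ UTR.
Fth1: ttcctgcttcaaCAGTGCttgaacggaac
Ftl1: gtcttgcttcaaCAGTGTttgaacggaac
Slc40a1: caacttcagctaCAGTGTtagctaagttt
Tfrc held 5 elements in the 3′ UTR, in exon 19, on the forward strand of chromosome 16, and the first has the loop with A in place of T. They lie at chr16:32631160-32631188, chr16:32631219-32631247, chr16:32631598-32631626, chr16:32631663-32631691 and chr16:32631710-32631738.
Tfrc element 1: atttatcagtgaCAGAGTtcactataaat
Tfrc element 2: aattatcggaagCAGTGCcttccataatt
Tfrc element 3: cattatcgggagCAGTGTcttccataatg
Tfrc element 4: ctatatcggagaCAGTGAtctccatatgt
Tfrc element 5: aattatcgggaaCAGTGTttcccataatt
Slc11a2 held 1 element in the 3′ UTR, in exon 16 of an alternative transcript (chr15:100395153-100395181, reverse strand), with 4 of 5 pairs where the others had 5. The principal transcript of the gene does not hold it, and the counts do not separate the transcripts.
Slc11a2: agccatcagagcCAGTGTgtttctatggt
No match was found in the UTRs of Hmox1, Ireb2 and Aco1. With 5 pairs the letters occur in the 5′ UTR of 0.335% of 20597 genes and in the 3′ UTR of 1.19% of 20979 genes. With 4 or 5 pairs they occur in 2.41% and 7.97%.

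Atg5, the targeted gene, did not follow the labels in every library. It was at 23, 25.6 and 52.2 CPM (counts scaled to a common library size by TMM) in KO 1, KO 2 and KO 3 as labelled, against 66.3, 71.8 and 21.8 CPM in those labelled WT 1, WT 2 and WT 3. The library labelled WT 3 was thus lower in Atg5 than every library labelled KO, and KO 3 was the highest of its group, so every direction below is a direction between labels. KO 1 to WT 3 below stand for the libraries so labelled, and KO and WT for the labelled groups. Its log2 difference was -0.67 (SE 0.50, adjusted p = 0.478, edgeR's quasi-likelihood test) with all 6 libraries, and without WT 3 it fell by 1.03 (SE 0.33, adjusted p = 0.0489). Across 14052 tested genes WT 3 had a Pearson correlation of 0.991 with KO 1 and 0.990 with KO 2, and of 0.946 with WT 1 and 0.948 with WT 2 (log2 CPM, across genes, which are not independent replicates). Results for the tested iron genes are therefore given with all 6 libraries and without the library labelled WT 3. For some genes of the other iron lists only the fit without WT 3 is printed. That library was singled out after its values were seen. Leaving out a WT library this close to KO 1 and KO 2 tends to widen differences by label. P-values without WT 3 are therefore post hoc and may be too small. Library totals were 28827545 to 33662979 estimated counts. The 14 ILC2 identity genes summed to 11596 to 15721 CPM in KO and 15722 to 19005 CPM in WT, and the part of this difference in the results below was not tested. The most abundant were Il5, at 5352 to 9194 CPM in KO and 8242 to 9148 CPM in WT, and Il2ra, at 2075 to 2303 CPM in KO and 2360 to 2628 CPM in WT. The other genes of that list set WT 1 and WT 2 apart from the other 4 libraries, most of them upwards (named after their values were seen). Higher in WT 1 and WT 2 were Gata3, Il1rl1, Rora, Klrg1, Areg, Arg1, Thy1, Id2, Ptprc and, slightly, Icos. Lower were Il13 and, slightly, Il7r. Klrg1 was at 174, 163 and 121 CPM in KO 1, KO 2 and KO 3, against 526, 556 and 154 CPM in WT 1, WT 2 and WT 3, and Gata3 at 900, 925 and 927 CPM in KO, against 1559, 1533 and 964 CPM in WT. Il13 was at 367, 367 and 286 CPM in KO, against 99, 117 and 355 CPM in WT.

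Lists of markers of other cells were summed in each library. The 10 macrophage and monocyte markers used, of 22 listed, summed to 4.24 to 15.2 CPM in KO and 11.3 to 29.4 CPM in WT, with Mrc1, Ear2, Itgam and Ly6c2 under 1 CPM in every library. Their most abundant members were Chil3, at 0.479 to 8.87 CPM in KO and 0.229 to 24.6 CPM in WT, and Cd68, at 2.20 to 3.32 CPM in KO and 2.12 to 7.77 CPM in WT. Erythroid markers (5 of 11 used) summed to 7.75 to 8.49 CPM in KO and 5.83 to 11.1 CPM in WT, mostly Hba-a1 and Hba-a2, with Hbb-bs, Hbb-bt and Klf1 under 1 CPM throughout. Granulocyte and mast cell markers, led by Tpsb2 and Cpa3, summed to 3.13 to 11.0 CPM in KO and 10.7 to 19.7 CPM in WT. T cell markers, led by Cd3g and Cd3e, summed to 25.3 to 28.3 CPM in KO and 24.8 to 42.8 CPM in WT. Cd3g was at 18.3, 18.8 and 11.4 CPM in KO 1, KO 2 and KO 3, against 35.3, 37.2 and 16.3 CPM in WT 1, WT 2 and WT 3. No other T cell marker used followed Cd3g. Cd3e was at 3.39, 2.80 and 4.18 CPM in KO, against 3.15, 2.39 and 4.41 CPM in WT. Foxp3 was higher in KO, at 3.84, 3.72 and 4.69 CPM, against 2.43, 1.24 and 2.42 CPM in WT. Epithelial markers, led by Epcam and Scgb1a1, summed to 9.35 to 29.1 CPM in KO and 14.9 to 58.2 CPM in WT. Scgb1a1 was at 15.0 CPM in KO 2, the library with the highest KO sum, and at most 0.232 CPM in the other libraries. Epcam was at 12.6, 13.7 and 8.90 CPM in KO, against 57.4, 52.3 and 14.3 CPM in WT. B cell markers, led by Ighm and Cd79b, reached 200.6 CPM in KO 3 through Ighm (194 CPM) and lay between 24.6 and 31.6 CPM in the other libraries, with Cd79a under 1 CPM in every library. The endothelial and stromal list summed to 92.1 to 131 CPM in KO and 8.57 to 93.8 CPM in WT, nearly all of it Pecam1, with Cldn5, Col1a1 and Col1a2 under 1 CPM. Pecam1 was at 107, 92 and 131 CPM in KO 1, KO 2 and KO 3, against 10.4, 8.54 and 93.1 CPM in WT 1, WT 2 and WT 3, the same split of libraries as in the ferritin genes below, and Epcam and Cd3g split the libraries the same way in the opposite direction. The part of these markers in the results was not tested.

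Fth1, the ferritin heavy chain that oxidises iron for storage, spans bases 9982703 to 9985092 of chromosome 19 (forward strand). KO 1, KO 2 and KO 3 held 6143, 6603 and 11966 CPM of it, against 1952, 2021 and 6146 CPM in WT 1, WT 2 and WT 3. KO 3 was the highest, WT 1 and WT 2 were the lowest and close to each other, and WT 3 lay just above KO 1, so the groups overlapped. The means were 8237 ± 3237 CPM in KO and 3373 ± 2402 CPM in WT (SD, n = 3 each). The fitted log2 difference of 1.29 (SE 0.52, a fold of 2.44) did not pass edgeR's quasi-likelihood test (unadjusted p = 0.0428, adjusted p = 0.342). In the fit without WT 3, Fth1 rose 4.17-fold (log2 difference 2.06, SE 0.29), with an adjusted p of 0.00194 by the same test. In bulk RNA, a change in the share of some cells and a change in RNA per cell cannot be told apart.

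Ftl1, the ferritin light chain, spans bases 45457944 to 45459884 of chromosome 7 (reverse strand). It was at 12177, 13420 and 17686 CPM in KO 1, KO 2 and KO 3, against 6188, 6545 and 11893 CPM in WT 1, WT 2 and WT 3. Ftl1 was the only iron gene of the 8 whose groups did not overlap, and the gap between KO 1 and WT 3 was small. Over all tested genes, 9.26% had every KO library above every WT library and 9.22% every KO library below. Without WT 3 these shares were 30.6% and 30.2%. The log2 difference was 0.81 (SE 0.31, adjusted p = 0.342, edgeR) with all 6 libraries, and 1.19 (SE 0.16, adjusted p = 0.00157) without WT 3. The retrocopy Ftl1-ps1 on chromosome 13 had 2.39%, 2.37% and 2.39% of the Ftl1 counts in KO 1, KO 2 and KO 3, and 2.40%, 2.37% and 2.30% in WT 1, WT 2 and WT 3. Reads shared between the copies cannot be told from separate expression, and both values are uncertain to that extent. Fth1 and Ftl1 together took 1.83%, 2.00% and 2.93% of all counts in KO 1, KO 2 and KO 3, against 0.825%, 0.851% and 1.81% in WT 1, WT 2 and WT 3.

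**Figure D1:**
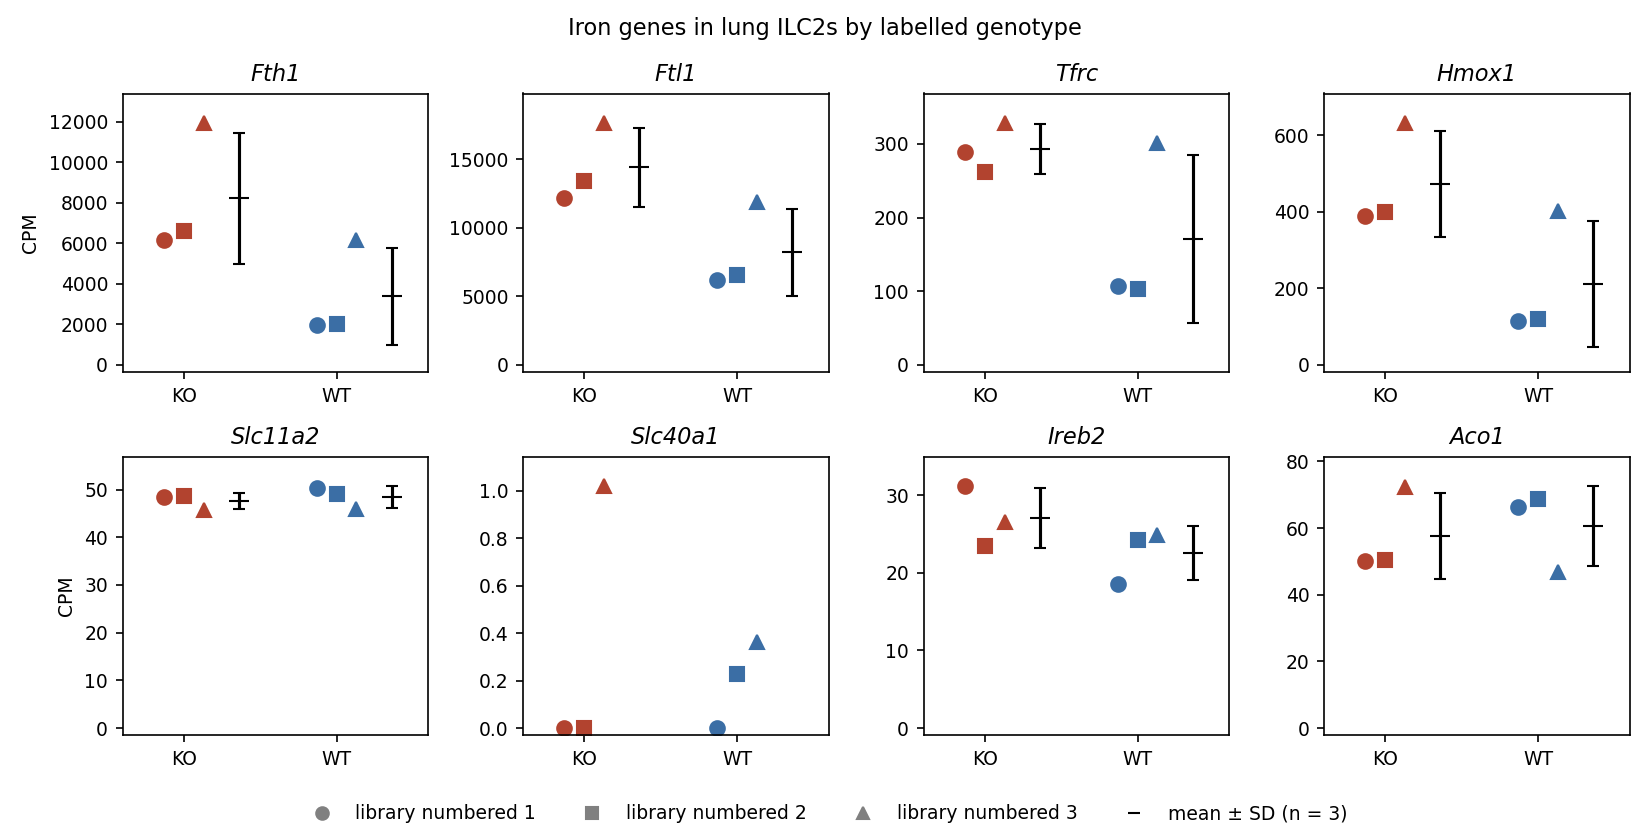
CPM of the 8 iron genes in each library (1 panel per gene, linear axes), KO left of WT, symbols for the library number, and black bars for the mean ± SD of 3 libraries (left out for Slc40a1, which has libraries at 0). In Fth1, Ftl1, Tfrc and Hmox1 the library labelled WT 3 stands with the KO libraries and far above WT 1 and WT 2, while Slc11a2 lies between 45.6 and 50.4 CPM in all 6.

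Tfrc, the receptor that takes up transferrin, spans bases 32608920 to 32632794 of chromosome 16 (forward strand). It was at 289, 261 and 329 CPM in KO 1, KO 2 and KO 3, against 106, 103 and 302 CPM in WT 1, WT 2 and WT 3. WT 3 lay inside the range of the KO libraries. With all 6 libraries the log2 difference of 0.78 (SE 0.43) did not pass (adjusted p = 0.375, edgeR), and without WT 3 Tfrc rose by 1.49 log2 units (SE 0.12) at an adjusted p of 0.000214. Tfrc mRNA, with elements in its 3′ UTR, was thus high in the same 4 libraries as the ferritin mRNAs, which carry theirs in the 5′ UTR.

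Slc11a2 (chromosome 15, 100387898 to 100425072, reverse strand) varied least among the 7 tested genes. It was at 48.5, 48.7 and 45.6 CPM in KO 1, KO 2 and KO 3, against 50.4, 49.1 and 45.8 CPM in WT 1, WT 2 and WT 3. The groups overlapped, and the log2 difference was -0.03 (SE 0.12, adjusted p = 0.918, edgeR) with all 6 libraries and -0.06 (SE 0.11, adjusted p = 0.727) without WT 3. Transcripts with and without the iron-responsive element are summed in these values.

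Slc40a1, the exporter ferroportin (chromosome 1, 45908068 to 45926523, reverse strand), was close to the limit of detection. It had 0, 0 and 32 counts in KO 1, KO 2 and KO 3, against 0, 7 and 11 counts in WT 1, WT 2 and WT 3, which is at most 1.02 CPM. A count of 0 allows up to 3 counts, or 0.0892 to 0.104 CPM over the 6 libraries, for counting error only. The gene did not reach the count filter and has no test here. Its level relative to Tfrc could not be tested either, since 3 libraries were at 0: Tfrc had 322 counts for each Slc40a1 count in KO 3, and 449 and 828 in WT 2 and WT 3. With 3 counts put in for 0, the ratio was at least 2780 in KO 1 and 2928 in KO 2, and at least 1082 in WT 1.

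Hmox1, which breaks haem down to iron, carbon monoxide and biliverdin, spans bases 75093621 to 75100589 of chromosome 8 (forward strand). It was at 388, 398 and 633 CPM in KO 1, KO 2 and KO 3, against 114, 120 and 402 CPM in WT 1, WT 2 and WT 3. As for Fth1, KO 3 was highest, and WT 3 lay with KO 1 and KO 2 within the KO range. The log2 difference was 1.16 (SE 0.52, unadjusted p = 0.0621, adjusted p = 0.350, edgeR) with all 6 libraries. Without WT 3, Hmox1 rose 4.06-fold (log2 difference 2.02, SE 0.23), with an adjusted p of 0.000767. The macrophage markers summed to 15.2, 10.4 and 4.24 CPM in KO 1, KO 2 and KO 3, against 16.1, 11.3 and 29.4 CPM in WT 1, WT 2 and WT 3. KO 3, highest in Hmox1, had the lowest sum. WT 3, highest in Hmox1 among WT, had the highest sum, but 24.6 CPM of it was Chil3 alone. Cd68, the next most abundant, was at 3.32, 2.47 and 2.20 CPM in KO, against 7.77, 7.46 and 2.12 CPM in WT. The part of the macrophage markers in the result was not tested.

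Neither gene of the iron regulatory proteins passed with all 6 libraries or without WT 3. Ireb2 (chromosome 9, 54863789 to 54912530, forward strand) was at 31.2, 23.4 and 26.6 CPM in KO 1, KO 2 and KO 3, against 18.6, 24.2 and 24.9 CPM in WT 1, WT 2 and WT 3. The groups overlapped, and the log2 difference of Ireb2 was 0.26 (SE 0.19, adjusted p = 0.467, edgeR) with all 6 libraries and 0.34 (SE 0.19, adjusted p = 0.211) without WT 3. Aco1 (chromosome 4, 40143081 to 40198338, forward strand) was at 50, 50.4 and 72.4 CPM in KO, against 66.4, 68.7 and 46.9 CPM in WT, in the same order of numbers. KO 3 was the highest and WT 3 the lowest of all 6, so each group had its library numbered 3 on the far side of the other group. The log2 difference was -0.07 (SE 0.22, adjusted p = 0.862, edgeR) with all 6 libraries and -0.22 (SE 0.18, adjusted p = 0.381) without WT 3. Aco1 passed only in the fit that also leaves out KO 3, of 2 libraries against 2, where it fell by 0.42 (SE 0.10, adjusted p = 0.00573, edgeR).

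**Figure D2:**
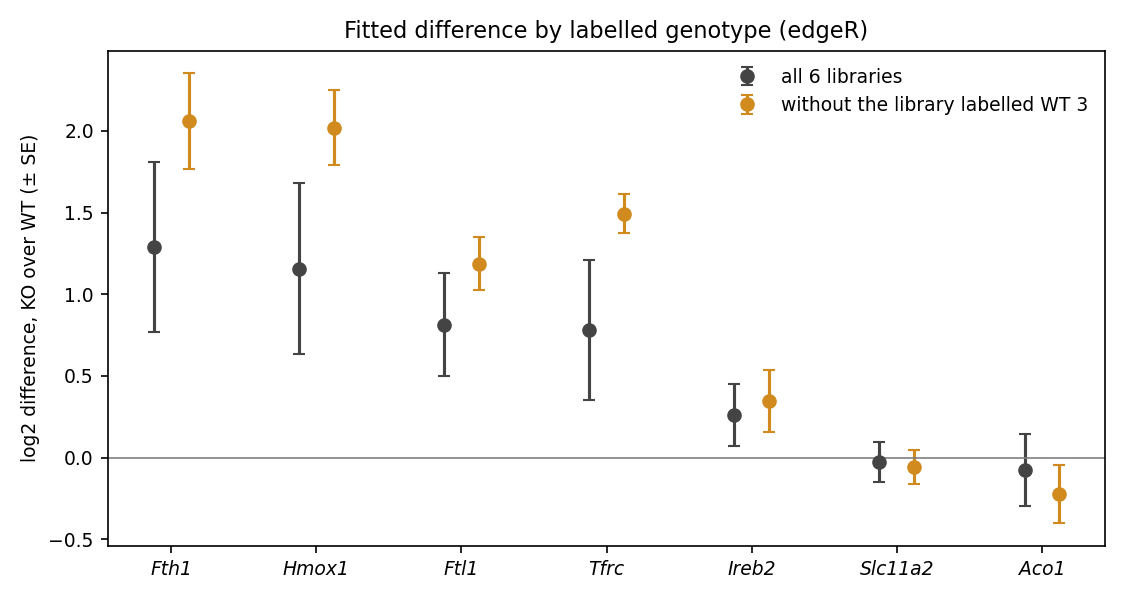
Log2 difference of KO over WT (vertical axis, points, bars for ± SE) fitted by edgeR for the 7 tested iron genes, with all 6 libraries and without the library labelled WT 3. Fth1 stands at 1.29 and 2.06 and Slc11a2 at -0.03 and -0.06.

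Counted over the genes, 0 of 7 tested members passed with all 6 libraries at an adjusted p under 0.05 by edgeR, where 0% of 14052 genes passed. At an unadjusted p under 0.05 there were 2 of 7, Fth1 and Ftl1, against 14.4% of all genes. DESeq2 on the same libraries passed 0 of 7 and 2.3% of all genes (2.19% lower in KO, 0.107% higher). By limma-voom and limma-trend 0 of 7 passed. Without WT 3, 4 of 7 rose (Fth1, Ftl1, Tfrc and Hmox1) and 0 fell, against 17.7% and 16.1% of 14743 genes (33.9% in either direction). The median log2 difference over the 7 was 0.78 with all 6 libraries and 1.19 without WT 3, against 0.02 over all tested genes in each fit. The iron genes were chosen with earlier results of these data known, so these counts and medians are descriptions and no test of the set. The libraries left out decide these calls: without any other single library 0 of 7 passed, and without both libraries numbered 3 the 4 genes above rose and Aco1 fell, against 22.7% of 14315 genes in each direction and 45.4% in either.

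KO 3 and WT 3 differed from their label mates by gene-specific amounts. KO 3 exceeded the geometric mean of KO 1 and KO 2 by 1.88-fold in Fth1, 1.61-fold in Hmox1, 1.44-fold in Aco1, 1.38-fold in Ftl1 and 1.20-fold in Tfrc, while Slc11a2 and Ireb2 were at 0.939 and 0.983 times that mean. The median absolute log2 distance of KO 3 from KO 1 and KO 2 was 0.25 over all tested genes, and the signed distance was 0.91 for Fth1 and 0.69 for Hmox1. WT 3 lay 1.63 log2 units above WT 1 and WT 2 in Fth1, 1.78 in Hmox1, 1.53 in Tfrc and 0.90 in Ftl1, and at -0.53 in Aco1, where the median absolute distance over all genes was 0.44. From KO 1 and KO 2 it lay -0.05 in Fth1, 0.03 in Hmox1, 0.14 in Tfrc and -0.10 in Ftl1, where the median absolute distance over all genes was 0.14. These values describe single libraries and carry no test.

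Levels of the iron genes named at the start were ranked against each other only per kilobase of the principal transcript. Marker genes called most abundant, or said to lead a list, were ranked by CPM without regard to transcript length. The ratio of Tfrc to Slc40a1 above and the ratios below use counts without regard to transcript length, and serve to compare libraries. Within every library Ftl1 was highest, at 12579 to 18270 CPM per kilobase in KO and 6392 to 12286 in WT, followed by Fth1 at 6612 to 12880 in KO and 2101 to 6615 in WT. Hmox1 came next, at 247 to 403 CPM per kilobase in KO and 72.6 to 256 in WT, then Tfrc at 53.4 to 67.3 in KO and 21.1 to 61.8 in WT. Slc11a2, at 15.1 to 16.1 in KO and 15.2 to 16.7 in WT, and Aco1, at 13.0 to 18.9 in KO and 12.2 to 17.9 in WT, did not differ beyond their spread and changed places between libraries. Ireb2 was lower, at 4.06 to 5.41 CPM per kilobase in KO and 3.22 to 4.32 in WT, and Slc40a1 was at most 0.303 in KO and 0.108 in WT.

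**Figure D3:**
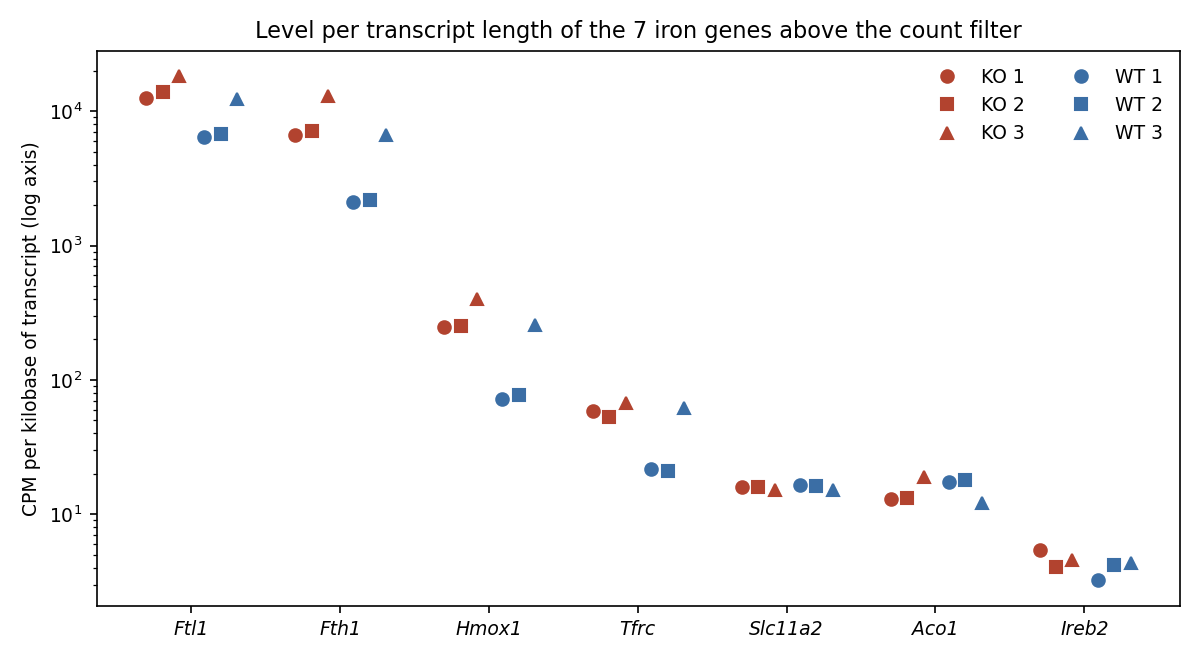
CPM per kilobase of transcript (vertical log axis) of 7 iron genes in each library, KO left of WT within each gene, symbols for the library number. The order from Ftl1 down to Ireb2 holds in all 6 libraries except for Slc11a2 and Aco1, which change places.

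Ratios of counts within a library do not depend on how libraries are scaled to each other, and 3 were tested by an exact two-sided permutation test over libraries, which with 3 against 3 cannot give less than p = 0.1. Heavy to light chain, Fth1 to Ftl1, was 0.504, 0.492 and 0.677 in KO 1, KO 2 and KO 3, against 0.315, 0.309 and 0.517 in WT 1, WT 2 and WT 3. WT 3 fell inside the KO range, so the groups overlapped, and the log2 difference of 0.58 did not pass (exact permutation p = 0.3, adjusted p = 0.4 over 3 ratios). Without WT 3 it was 0.82 (exact permutation p = 0.2, the smallest that 3 against 2 libraries allow). Ireb2 to Aco1 was 0.624, 0.465 and 0.367 in KO, against 0.280, 0.353 and 0.532 in WT, again with overlap (log2 difference 0.34, exact permutation p = 0.4, adjusted p = 0.4, and 0.59 without WT 3, exact permutation p = 0.2).

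Tfrc to Fth1, uptake receptor to storage protein, was the ratio in which the groups did not overlap. It was 0.0470, 0.0396 and 0.0275 in KO 1, KO 2 and KO 3, against 0.0545, 0.0510 and 0.0491 in WT 1, WT 2 and WT 3. Here WT 3 lay beside WT 1 and WT 2, although Tfrc and Fth1 each put it with the KO libraries, and the gap between WT 3 and KO 1 was small. The log2 difference was -0.47 (exact permutation p = 0.1, the smallest possible, adjusted p = 0.3), and without WT 3 it was -0.51 (exact permutation p = 0.2). Without KO 3 it shrank to -0.26, and without both libraries numbered 3 to -0.29.

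**Figure D4:**
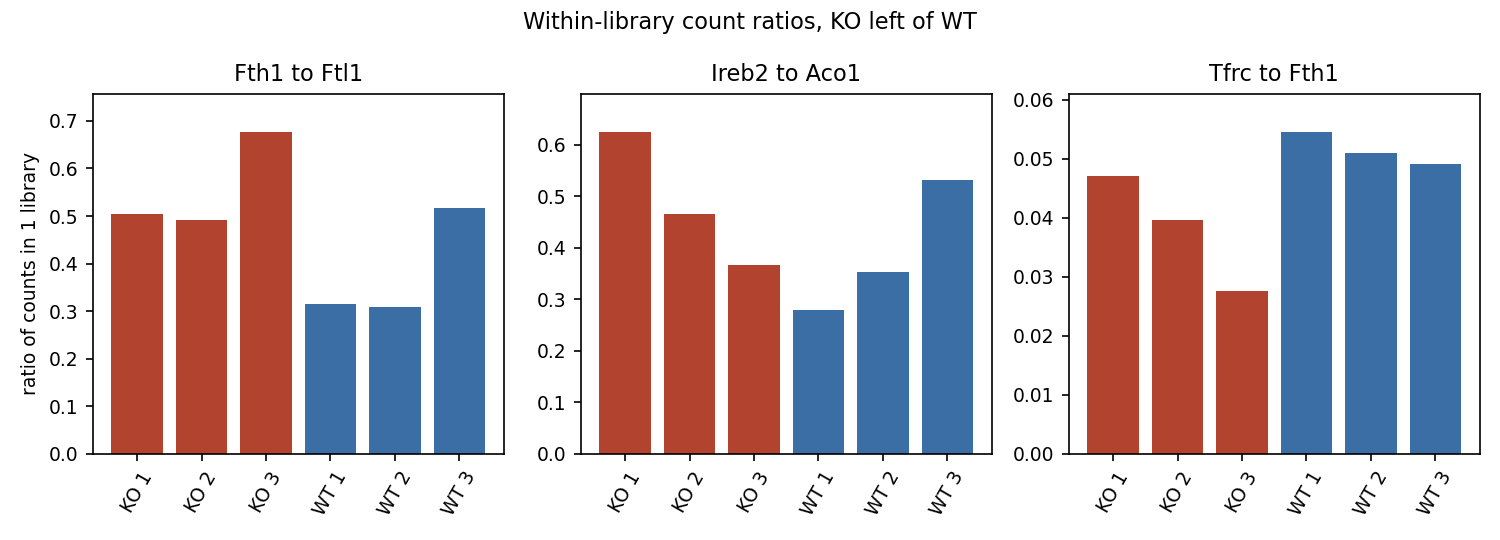
Ratio of the counts of 2 genes in each library (vertical axes from 0), bars for single libraries, KO left of WT. In Tfrc to Fth1 the 3 KO bars (0.0275 to 0.0470) are below the 3 WT bars (0.0491 to 0.0545), and in the other ratios the groups overlap.

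For each tested iron gene, the nearest patterns among 10241 named genes were found by the root mean square difference of centred log2 CPM over the 6 libraries, a description with no test. Nearest to Fth1 were Cebpb, a transcription factor (0.0910), and Ifrd1 (0.0917), where Fth1 itself spread by 0.953 around its mean. Hmox1 was nearest to Abcb8, a mitochondrial ABC transporter (0.0962), and to Fth1 itself (0.0963). Ftl1 was nearest to its retrocopy Ftl1-ps1 (0.02), with which it may share reads, and to Gclm, a subunit of the enzyme that starts glutathione synthesis (0.0644). Tfrc was nearest to Asns, asparagine synthetase (0.0468), and to Slc16a1, a lactate transporter (0.0695). The flat Slc11a2 had Hnrnph1 (0.0237) and Ints1 (0.0297) nearest to it. Ireb2 had Msra (0.0637) and Scarb1 (0.0693), and Aco1 had the glycolytic enzyme gene Aldoa (0.0350) and Add3 (0.0413).

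Other genes of iron handling were taken from lists, and none of them passed by edgeR with all 6 libraries. Among genes of uptake, export and ferritin handling, 14 were tested (0 passed by DESeq2 after adjustment), with a median log2 difference of -0.27. At an unadjusted p under 0.05 by edgeR there were 3 of 14, against 14.4% of all genes. Without WT 3, 2 of 15 rose (Hamp and Lcn2) and 4 fell (Fbxl5, Slc39a8, Tfr2 and Slc22a17), against 17.7% and 16.1% of all genes. Ncoa4, the receptor that takes ferritin into autophagosomes, was at 97.5, 96.3 and 142 CPM in KO 1, KO 2 and KO 3, against 99.0, 103 and 103 CPM in WT 1, WT 2 and WT 3. Only KO 3 stood apart in Ncoa4, which did not pass (adjusted p = 0.673 with all 6 libraries and 0.562 without WT 3, edgeR). Fbxl5, part of the ligase that marks IRP2 for degradation when iron is plentiful, was at 69.9, 70.0 and 60.5 CPM in KO, against 90.9, 99.0 and 74.5 CPM in WT. Its groups did not overlap, and without WT 3 it fell by 0.50 log2 units (SE 0.11, adjusted p = 0.0119, edgeR) but did not pass with all 6 libraries (adjusted p = 0.342).

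Slc39a8, a metal importer, was at 1.69 to 6.46 CPM in KO and 7.62 to 22.1 CPM in WT and fell by 2.07 without WT 3 (adjusted p = 0.0173, edgeR). Tfr2, the other transferrin receptor, was at 0.416 to 0.670 CPM in KO and 1.06 to 2.78 CPM in WT, and fell in the same fit (adjusted p = 0.0246). Pcbp2, an iron chaperone, was at 64.5 to 85.4 CPM in KO and 62.0 to 77.4 CPM in WT. It did not pass with all 6 libraries or without WT 3. It rose without both libraries numbered 3, where 45.4% of all genes passed. Lcn2, which binds iron-loaded siderophores, was at 0.520 to 3.38 CPM in KO and 0 to 1.06 CPM in WT, with WT 1 at 0. Hamp, which encodes the iron hormone hepcidin, was singled out after its values were seen: 6.96, 5.56 and 4.34 CPM in KO 1, KO 2 and KO 3, against 0.197, 0.295 and 7.72 CPM in WT 1, WT 2 and WT 3. The highest Hamp value was thus in WT 3. With all 6 libraries the log2 difference of Hamp was 1.04 (SE 1.22, adjusted p = 0.644, edgeR). Without WT 3 Hamp rose by 4.50 log2 units (SE 0.45) at an adjusted p of 0.000461 (edgeR).

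Among 17 tested genes of haem synthesis, transport and breakdown, 0 passed with all 6 libraries, and the median was 0.13. At an unadjusted p under 0.05 there was 1 of 17, against 14.4% of all genes. Without WT 3, 5 rose and 2 fell, against 17.7% and 16.1% of all genes. Abcb6, a porphyrin transporter, was at 68.9, 70.7 and 86.3 CPM in KO, against 38.8, 38.0 and 64.9 CPM in WT, without overlap, and rose by 0.98 without WT 3 (adjusted p = 0.00163, edgeR). Flvcr2 was at 1.55 to 2.27 CPM in KO and 0.491 to 1.59 CPM in WT. Cpox, an enzyme of haem synthesis named after its values were seen, was at 250 to 274 CPM in KO, against 77.6, 92.6 and 288 CPM in WT 1, WT 2 and WT 3. The log2 difference of Cpox was 0.78 with all 6 libraries (SE 0.48, adjusted p = 0.405, edgeR) and 1.63 without WT 3 (adjusted p = 0.000128). Hmox2, the haem oxygenase made constitutively, was at 67.0, 59.0 and 53.2 CPM in KO, against 77.4, 87.1 and 63.5 CPM in WT. It fell by 0.45 without WT 3 (SE 0.13, adjusted p = 0.0316, edgeR), in the fit in which Hmox1 rose. Fech, which inserts iron into haem, was at 46.0 to 48.4 CPM in KO and 51.0 to 58.3 CPM in WT. It did not pass with all 6 libraries or without WT 3. Without both libraries numbered 3 it fell by 0.29 (adjusted p = 0.0428, edgeR).

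Of the genes of mitochondrial iron import and iron-sulphur cluster assembly, 11 of 28 rose and 0 fell without WT 3, where 17.7% of all genes rose and 16.1% fell. With all 6 libraries 0 passed and the median was 0.24, against 0.02 over all genes. At an unadjusted p under 0.05 there were 2 of 28, against 14.4% of all genes. Fdx1l, a mitochondrial ferredoxin, was at 46.8, 54.5 and 52 CPM in KO, against 22.8, 27.9 and 42.8 CPM in WT. The groups did not overlap and WT 3 lay between KO and the other WT libraries. Fdx1l rose without WT 3 by 1.02 (adjusted p = 0.00186, edgeR). Mms19, which passes clusters on to DNA enzymes, was at 50.5 to 60.4 CPM in KO and 62.5 to 71.7 CPM in WT, and Narfl at 29.6 to 30.4 CPM in KO and 28.6 to 36.1 CPM in WT. Neither passed.

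Among 12 transcription regulators of ferritin and haem oxygenase genes, 0 passed with all 6 libraries (median 0.42). At an unadjusted p under 0.05 there were 3 of 12, against 14.4% of all genes. Without WT 3, 5 rose and 1 fell, against 17.7% and 16.1% of all genes. Nfe2l2, which encodes NRF2, an activator of Hmox1 and both ferritin genes, was at 90.4, 93.1 and 137 CPM in KO, against 83.0, 82.0 and 92.8 CPM in WT, and did not pass (adjusted p = 0.398 with all 6 libraries, 0.167 without WT 3, edgeR). Its partners Mafg, at 125, 138 and 199 CPM in KO against 87.4, 85.9 and 125 CPM in WT, and Mafk, at 84.4, 77.2 and 94.1 CPM in KO against 38.8, 40.5 and 79.3 CPM in WT, rose without WT 3 (adjusted p = 0.0159 and 0.000665). The other listed Maf gene, Maff, did not pass in that fit (adjusted p = 0.107, edgeR). Myc and Nfe2l1, named after their values were seen, rose in it by 2.24 and 1.02 log2 units (adjusted p = 0.000189 and 0.0284, edgeR). Myc was at 569, 588 and 804 CPM in KO, against 133, 144 and 592 CPM in WT. Bach1, the repressor that haem displaces from Hmox1, was at 3.99 to 4.31 CPM in KO and 2.22 to 5.17 CPM in WT and did not pass, nor did Bach2, at 1.18 to 7.31 CPM in KO and 4.34 to 12.8 CPM in WT. Hif1a was at 602 to 750 CPM in KO and 782 to 1064 CPM in WT, without overlap, and fell by 0.67 without WT 3 (adjusted p = 0.00321, edgeR).

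The 4 tested mRNAs outside the 8 genes with a described iron-responsive element did not share a direction, and their median was -0.26. An unadjusted p under 0.05 was reached by 1 of 4, against 14.4% of all genes. Of these 4 mRNAs, 1 rose and 1 fell without WT 3, against 17.7% and 16.1% of all genes. Epas1, which encodes HIF-2alpha, was at 23.4, 27.8 and 25.5 CPM in KO, against 10.1, 11.4 and 24.4 CPM in WT, and rose by 1.26 without WT 3 (adjusted p = 0.00154, edgeR). It is counted among the regulators too. Cdc14a, at 5.18 to 10.8 CPM in KO and 8.52 to 16.3 CPM in WT, did not pass with all 6 libraries or without WT 3. Without both libraries numbered 3, Cdc14a fell by 1.20 (adjusted p = 0.00427, edgeR). Cdc42bpa, at 6.43 to 11.9 CPM in KO and 8.10 to 9.58 CPM in WT, did not pass in any of these fits.

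**Figure D5:**
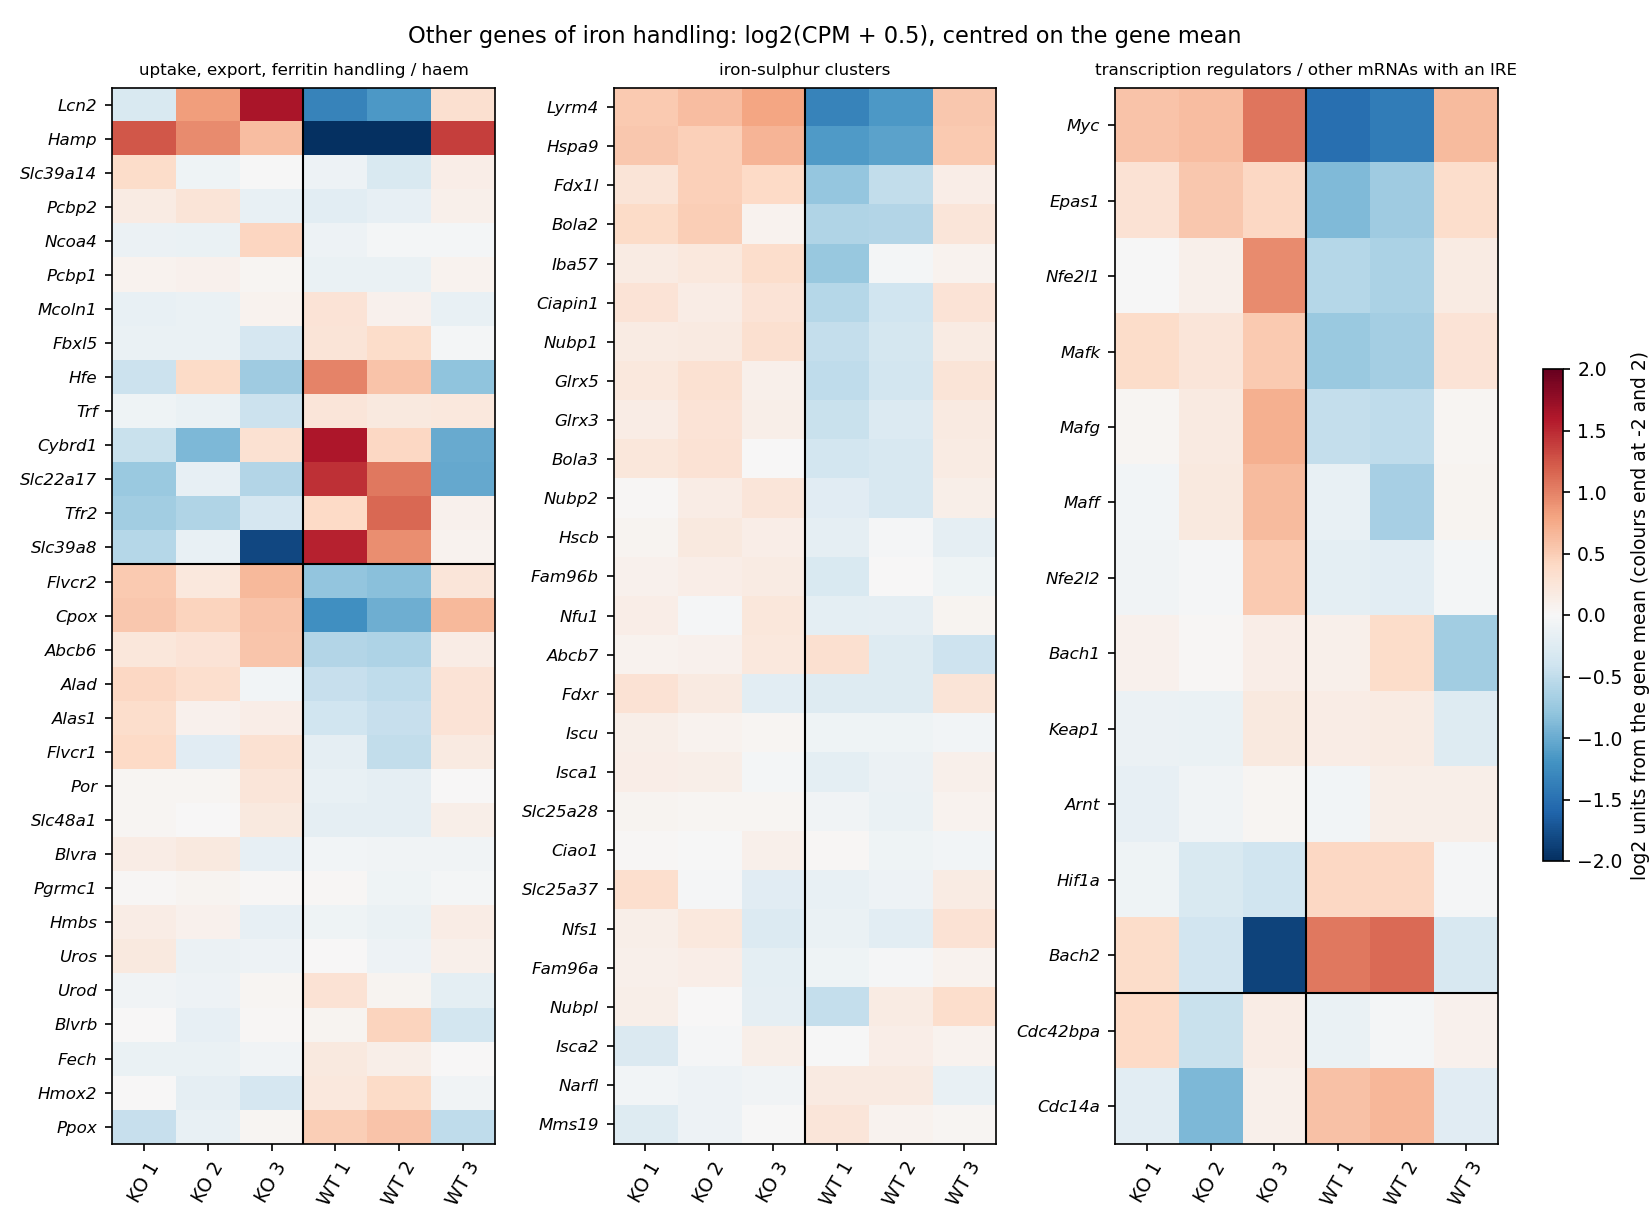
Colour is log2(CPM + 0.5) of the tested genes shown from the other iron lists minus its mean over the 6 libraries (1 row per gene, 1 column per library, KO left of WT, lines between lists). Over the whole iron-sulphur list the median gene of WT 3 lies 0.43 log2 units above WT 1 and WT 2 and -0.03 from KO 1 and KO 2.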

How the data were processed

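Messenger RNA was measured in 6 libraries of sorted lung ILC2s, each from 10 ng of RNA, and groups and numbers were taken from the sample titles. Nothing in the labels ties a library to its own animal, so p-values measure the spread between libraries, which may be technical. The 8 iron genes, 5 lists of other iron genes and 8 marker lists were chosen with earlier results of these data known.

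The authors deposited estimated counts for 18543 genes, of which 47.1% to 48.5% per library were whole within 1e-06. Their deposited normalized signal covers 16322 genes and is the estimated count, raised by 1, over a factor that is constant within a library (31.2 to 36.0). Per the submitters' processing notes, the mm10 build was used, and Partek, STAR and CASAVA 1.8.2 are listed without roles. The sources used here do not give how reads of near-identical copies were assigned, or whether counting used strand.

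The estimated counts were rounded, filtered (filterByExpr), scaled (TMM) and compared, KO over WT, by the quasi-likelihood test of edgeR 4.0.16 (robust, R 4.3.3). P-values were adjusted over all tested genes by Benjamini-Hochberg, with a threshold of 0.05. Each SE is the absolute log2 difference over the root of the test's F. CPM use TMM-adjusted library totals. Floors cover counting error only. Values per kilobase use the best APPRIS transcript of GENCODE vM21, which also gave the sequences. Named genes are the 8, Atg5, the 2 nearest patterns per gene (mean log2 CPM of at least 1), the 2 genes with the lowest p in each direction of each iron list, 5 genes fixed by name, and the 2 most abundant genes of each marker list. A few of these are left unreported. The test was tried on simulated data first. Alternatives were other scalings, filters and tools (DESeq2 1.42.0, limma 3.58.1), a replicate block and left-out libraries.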

Additional observations from a re-analysis of the deposited data

How the results depend on the processing

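Under other scalings, filters, dispersion settings and tools, the 7 tested iron genes kept their direction and none passed. The library labelled WT 3 decided the calls. Leaving out single libraries gave log2 differences of 0.92 to 2.06 for Fth1, 0.63 to 1.19 for Ftl1, 0.52 to 1.49 for Tfrc and 0.84 to 2.02 for Hmox1, each passing only without WT 3. Without both libraries numbered 3 they were 1.69, 1.02, 1.40 and 1.76, and Aco1 was at -0.42, all past the threshold. The cause was not tested. The log2 difference of Tfrc to Fth1 was -0.64 to -0.26 over single left-out libraries, smallest in size without KO 3, and -0.29 without both. The number of iron genes passing was 0 to 4 over single left-out libraries and 5 without both. Over all genes it was 0 to 4991 (33.9%, without WT 3) and 6505 (45.4%), and DESeq2 called 323 with all 6. Counts in the lists, over single left-out libraries and then without both, were 0 to 6 and 10 for uptake and export, and 0 to 7 and 11 for haem. They were 0 to 11 and 15 for iron-sulphur clusters, 0 to 6 and 8 for regulators, and 0 to 2 and 3 for other element-bearing mRNAs. For uptake and export, 15 genes were tested without WT 3 and 14 without both. For the other lists, in that order, 17, 28, 12 and 4 genes were tested in both fits.

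Same-numbered libraries showed no shared deviation (correlations of -0.0367, 0.0196 and -0.00776). A small shared effect could leave such values too, so whether the numbers pair the libraries was not settled. With a replicate block Fth1 was at 1.44 (adjusted p = 0.308, edgeR), and 0 genes passed. Slc40a1, with at most 32 counts, could not be compared at this depth.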
